A study of Homo sapiens with 12 samples.

Results

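SAMD9 and SAMD9L are neighbouring, related genes on human chromosome 7, and both were measured in cells of squamous carcinomas of the head and neck (HNSCC) before and after interferon treatment. They are 2 of the 60099 genes in the deposited gene table and were picked by their symbols. The established HNSCC lines Cal27 and HN30 received 0, 20 or 200 ng/ml IFNα, a type I interferon, for 24 h, and total RNA freed of rRNA was sequenced from 12 samples. Letters A and D were the untreated controls, B and E the low dose (20 ng/ml) and C and F the high dose (200 ng/ml), each with replicates 1 and 2. Letters A to C and D to F each held every dose and are called line sets A-C and D-F, since the labels do not name the line behind a letter. The sample titles give the doses as control, low and high, and the numbers come from the description of the design. No label says that replicates came from separate cultures, so the p-values measure only the spread between these samples, which may be technical.

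SAMD9 and SAMD9L encode large cytoplasmic proteins named for the sterile alpha motif (SAM) at one end. Both are known as interferon-stimulated genes. Their proteins restrict poxviruses, which carry inhibitors against them, and when active they stop protein synthesis and slow cell growth. Inherited activating variants of either gene are known to cause blood cell failure and loss of a chromosome 7 copy in marrow cells. Type I interferon acts through the receptor chains IFNAR1 and IFNAR2 and the kinases JAK1 and TYK2. These activate transcription factors, STAT2 among them, which act with IRF9 on interferon-stimulated response elements in promoters.

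The samples carried between 10517448 and 16056734 estimated counts each. Of 8 squamous epithelial markers, 7 were above 15.5 TPM (a level scaled for transcript length and for depth) in every sample, while KRT14, a basal keratin, was listed at 0 in 4 samples. The blood cell markers PTPRC and CD3E stayed at or below 0.0425 TPM. The macrophage marker CD68, which other cells also express, brought the summed level of the 4 blood cell markers to between 5.34 and 10.2 TPM in controls, 13.1 and 28.4 TPM at 20 ng/ml and 17.4 and 39.6 TPM at 200 ng/ml, and its part in the results was not tested. The 3 fibroblast markers summed to 4.64 to 13.8 TPM, with COL1A1 at 3.43 to 13.0 TPM and DCN at or below 0.121 TPM. The 2 endothelial markers summed to 0.100 to 21.7 TPM, with PECAM1 at or below 0.576 TPM. CDH5 made up most of that sum, with a median of 7.66 TPM and at most 21.7 TPM.

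SAMD9 (ENSG00000205413) lies on the minus strand at chr7:93099513-93118023 of GRCh38, and SAMD9L (ENSG00000177409) lies 12031 bases away on the same strand at chr7:93130055-93148369. Each has its full coding region, 4770 bases for SAMD9 and 4755 for SAMD9L with the stop codon, in its last exon. Over 4713 coding bases that could be aligned codon by codon, 70.8% were identical. Reads of such relatives can be split wrongly, but only 2 of the 6854 different 31-base words in the annotated SAMD9 transcripts also occurred in those of SAMD9L. The longest run that both coding regions share is 32 bases, at chr7:93104725-93104756 in SAMD9 and at chr7:93134587-93134618 in SAMD9L, and it is shown because it is the stretch where reads of the pair are hardest to tell apart:
SAMD9 and SAMD9L: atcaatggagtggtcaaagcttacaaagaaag

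The bases before each gene's start are shown for their interferon motifs, taken from RefSeq promoters on GRCh38.p14 and written 5′ to 3′ on the minus strand, with the matches to GAAANNGAAA or AAANNGAAA in capitals. The SAMD9 stretch is chr7:93118024-93118229 and ends at the start in the deposited table, which lies 44 bases before the RefSeq start. The SAMD9L stretch is chr7:93148386-93148635 and ends at the RefSeq start.
SAMD9: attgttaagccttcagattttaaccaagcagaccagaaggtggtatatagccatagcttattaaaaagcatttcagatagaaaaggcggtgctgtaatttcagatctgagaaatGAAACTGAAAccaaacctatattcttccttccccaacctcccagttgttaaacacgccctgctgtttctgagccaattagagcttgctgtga
SAMD9L: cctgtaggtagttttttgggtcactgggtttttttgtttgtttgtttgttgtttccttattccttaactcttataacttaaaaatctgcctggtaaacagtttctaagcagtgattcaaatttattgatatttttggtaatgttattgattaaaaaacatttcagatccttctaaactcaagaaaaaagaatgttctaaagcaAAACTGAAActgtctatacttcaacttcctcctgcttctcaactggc

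GAAANNGAAA, the core of the interferon-stimulated response element searched on both strands, matched SAMD9 from base -136 to base -127 before the RefSeq start. SAMD9L had no match to this core, but had 1 to the shorter AAANNGAAA, which is contained in it, from base -47 to base -39. Of 27305 promoters with 250 bases before the start, 3.07% held GAAANNGAAA and 9.28% held AAANNGAAA. Among the 10923 promoters of tested genes the shares were 2.48% and 6.42%. Of the 159 promoters that matched by symbol to genes called higher at 200 ng/ml (defined with the fold changes), 42 held the longer form and 54 the shorter. TTCNNNGAA, the core of the gamma-activated sequence, was found in 6.78% of all promoters, 5.66% of those of tested genes and 19 of the 159 (11.9%). TATAAA, the core of the TATA box, was found in 11.1%, 5.50% and 18 (11.3%). Neither promoter of the pair held TTCNNNGAA or TATAAA in this window. These matches describe letters and are not measured binding sites.

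SAMD9 rose at both doses in both line sets, and its replicates lay close together. In the controls its level was 42.6 TPM in A1, 39.0 in A2, 44.7 in D1 and 42.8 in D2. At 20 ng/ml it was 227 TPM in B1, 221 in B2, 262 in E1 and 277 in E2. At 200 ng/ml it was 286 TPM in C1, 344 in C2, 345 in F1 and 315 in F2. In bulk RNA, more transcripts per cell and a larger share of responding cells cannot be told apart. The 3 dose groups did not overlap, and the lowest treated sample lay above every control. The means were 42.3 ± 2.36 TPM in controls, 247 ± 27.0 TPM at 20 ng/ml and 323 ± 28.3 TPM at 200 ng/ml (SD, n = 4). In the order of mean TPM over the 19944 genes tested, SAMD9 moved from place 3726 in controls to 392 at 20 ng/ml and 280 at 200 ng/ml.

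Genes were called where they changed by 2-fold or more in edgeR's quasi-likelihood test on the estimated counts and had a p no higher than 0.05 after Benjamini-Hochberg adjustment. SAMD9 was called higher at 200 ng/ml, with a log2 fold change of 2.88 (SE 0.06, edgeR adjusted p = 3.12e-09), a 7.35-fold rise. It was also called at 20 ng/ml, with a log2 fold change of 2.49 (SE 0.06, edgeR adjusted p = 1.01e-08), a 5.60-fold rise. Of all genes tested, 1.58% were called higher at 200 ng/ml and 0.963% at 20 ng/ml. By p-value SAMD9 took place 15 among 19944 with the high dose and place 16 with the low dose, whereas by fold it ranked 79 of the 316 genes called higher at 200 ng/ml. Within the line sets, line set A-C reached a log2 fold change of 2.94 (SE 0.09) at the high dose and D-F 2.82 (SE 0.09), against 1.41% and 1.67% of genes called higher. The low dose gave 2.43 (SE 0.09) in A-C and 2.54 (SE 0.09) in D-F, against 0.632% and 1.2% of genes. All 4 of these changes were called.

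**Figure D1:**
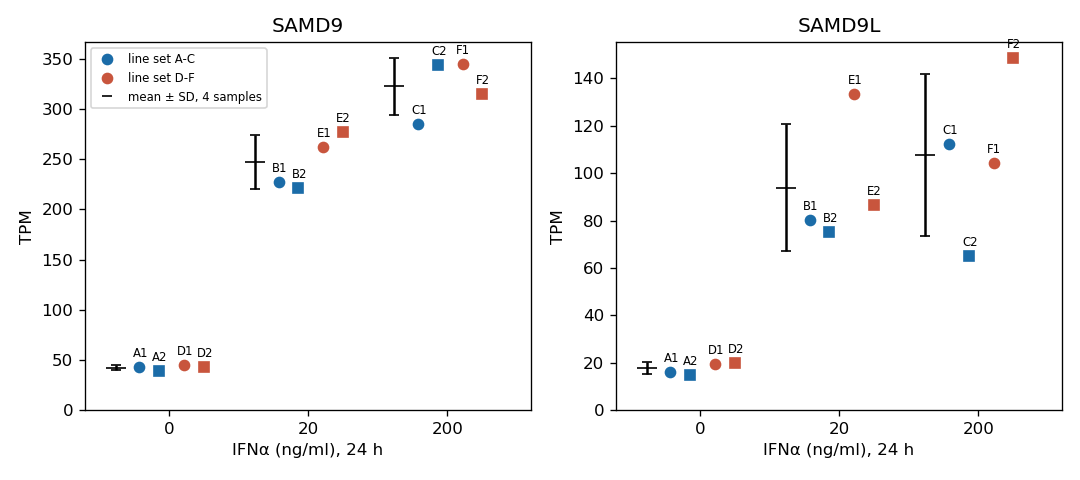
Level of SAMD9 (left) and SAMD9L (right) in TPM on the vertical axis against IFNα dose on the horizontal axis, with a labelled point per sample coloured by line set and the mean ± SD of 4 samples in black. SAMD9 samples lie at 39.0 to 44.7 TPM without IFNα and at 221 to 345 TPM with it, while the treated SAMD9L samples spread from 65.1 to 148 TPM.

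SAMD9L rose as well, from a lower level and with a far wider spread among the treated samples. In the controls it stood at 16.2 TPM in A1, 14.7 in A2, 19.5 in D1 and 20.04 in D2. With the low dose it stood at 80.1 TPM in B1, 75.1 in B2, 134 in E1 and 86.5 in E2. With the high dose it stood at 112 TPM in C1, 65.1 in C2, 104 in F1 and 148 in F2. Every treated sample lay above every control, but the samples at 20 and 200 ng/ml overlapped, with C2 below all 4 low-dose samples. The means were 17.6 ± 2.58 TPM in controls, 93.8 ± 26.9 TPM at 20 ng/ml and 108 ± 34.2 TPM at 200 ng/ml (SD, n = 4).

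The counts of SAMD9L fell into distinct levels within the treated samples. C1 held 4288 estimated counts and C2 1117. E1 held 4507 and E2 1347. F2 held 5140 and F1 1542. C2, E2 and F1 thus lay below B1 with 3084 and B2 with 3579, and above the controls at 572 to 730 counts. After TMM scaling, the replicate partner carried 3.38, 3.56 and 3.24 times the SAMD9L level of C2, E2 and F1. The same ratios for SAMD9 were 0.870, 0.925 and 0.908, so SAMD9 was not lower in these libraries. Fold changes and TPM ratios of SAMD9L are therefore given with all 12 samples and without C2, E2 and F1, an alternative chosen after the values had been seen.

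With all samples, SAMD9L was called higher at 200 ng/ml with a log2 fold change of 2.48 (SE 0.51, edgeR adjusted p = 0.0155), a 5.60-fold rise. At 20 ng/ml the log2 fold change was 2.41 (SE 0.51, edgeR adjusted p = 0.0305), a 5.32-fold rise. The call at 200 ng/ml was lost when A1, A2, D1 or D2 was left out. In these fits the log2 fold change stayed between 2.47 and 2.49, and the SE rose to 0.65. The call at 20 ng/ml was lost without A1, A2, B1, B2, D1, D2 or E1, with adjusted p between 0.0774 and 0.117, and without E1 the log2 fold change was 1.83. With the replicate block it was lost as well (log2 fold change 2.40, edgeR adjusted p = 0.0797). Within line sets edgeR called the change at neither dose, with log2 fold changes of 2.43 (SE 0.73) in A-C and 2.54 (SE 0.73) in D-F for the high dose and 2.43 (SE 0.73) and 2.39 (SE 0.72) for the low dose. DESeq2 called the high dose in A-C (adjusted p = 0.0196) and in D-F (adjusted p = 0.0169) and the low dose in D-F (adjusted p = 0.0402), but not the low dose in A-C (adjusted p = 0.0597). On TPM the replicate partners lay 1.73, 1.54 and 1.42 times above C2, E2 and F1 in SAMD9L, a smaller gap than in counts. With limma on log2(TPM + 1), a fit added after the data had been seen, all 4 changes within line sets were called. The limma adjusted p lay between 0.000642 and 0.00332. Single libraries decided these sizes in edgeR. The high-dose fold in A-C was 5.37 with both replicates, 2.44 without C1 and 8.27 without C2, and in D-F it was 5.83, 8.90 without F1 and 2.72 without F2. The low-dose fold in D-F was 5.23, 2.29 without E1 and 8.16 without E2.

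Without C2, E2 and F1 the log2 fold change of SAMD9L was 3.10 at 200 ng/ml, an 8.58-fold rise, and 2.73 at 20 ng/ml, a 6.64-fold rise. In that fit 1.02% of 20873 genes were called higher at 200 ng/ml and 0.771% at 20 ng/ml. SAMD9 had log2 fold changes of 2.79 (SE 0.05) and 2.45 (SE 0.05) in the same fit. C, E and F then held 1 sample each, which was taken to vary like the other groups. C2, E2 and F1 were left out for their low SAMD9L counts. This fit therefore gives only the size of the SAMD9L rise in the remaining samples and does not test it. On TPM, the dose was tested with an exact two-sided permutation test that exchanged doses within line sets. In this exact permutation test each gene gave p = 0.0556 at each dose against control, the smallest p that the 36 arrangements allow.

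**Figure D2:**
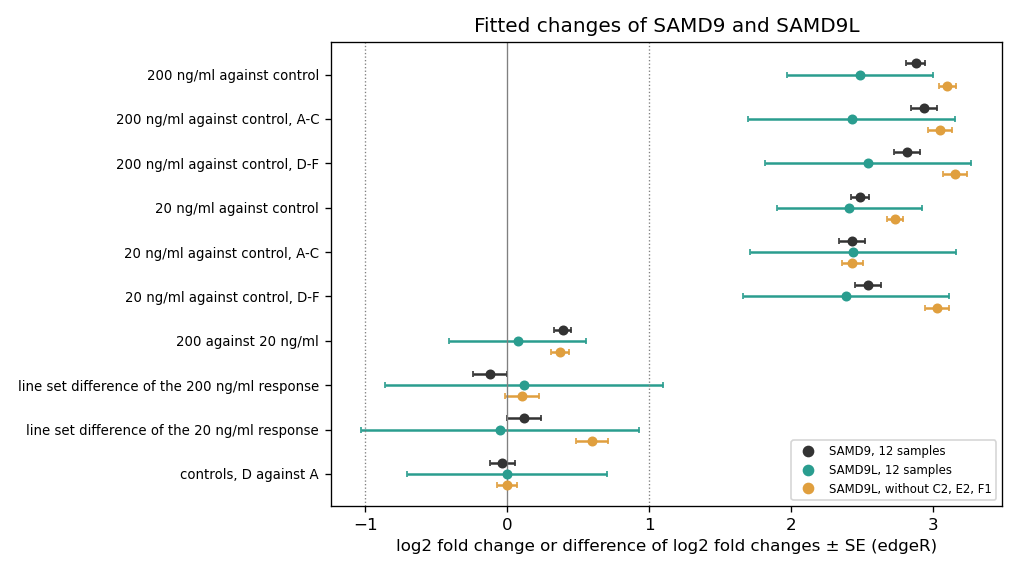
Fitted log2 fold changes, or differences of log2 fold changes for the line set comparisons, on the horizontal axis with bars of ± SE, for SAMD9 and SAMD9L in 12 samples and for SAMD9L without C2, E2 and F1. Dotted lines mark a 2-fold change. The SE of SAMD9L at 200 ng/ml is 0.51 with all samples. Without the 3 libraries its log2 fold change is 3.10. The short bars there follow from leaving out the low libraries and do not measure the spread of SAMD9L.

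From the low to the high dose neither gene was called. SAMD9 was 0.39 higher on the log2 scale at 200 than at 20 ng/ml (SE 0.06), a 1.31-fold difference, with an unadjusted edgeR p of 8.36e-05 and an adjusted p of 0.0535. It was not called, since it missed both limits, and 0.0451% of genes were called in either direction in this comparison. In line set A-C the log2 difference was 0.51 (SE 0.08) and in D-F 0.27 (SE 0.08). For SAMD9L the difference between doses was 0.07 (SE 0.48) with all samples and 0.37 without the 3 libraries, where C, E and F held 1 sample each.

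Neither gene was called between the untreated line sets. The log2 difference of D against A was -0.03 (SE 0.09, edgeR adjusted p = 0.773) for SAMD9 and 0.00 (SE 0.70) for SAMD9L, in a comparison where 26.6% of genes were called in either direction. The SE of 0.70 comes from the joint fit, which includes the treated samples, and was 0.11 in a fit of the controls alone. With limma on log2(TPM + 1) the difference of SAMD9L was 0.34 (SE 0.27). The response at 200 ng/ml differed between line sets by -0.12 (SE 0.12, edgeR adjusted p = 0.656) for SAMD9 and by 0.12 (SE 0.98) for SAMD9L, against 0.998% of genes called. At 20 ng/ml the difference was 0.12 (SE 0.12, edgeR adjusted p = 0.805) for SAMD9 and -0.05 (SE 0.98) for SAMD9L, against 0.231% of genes called. The SE of 0.98 leaves room for line set differences of SAMD9L of more than 2-fold. On TPM over all doses, D-F lay 1.37-fold above A-C for SAMD9L (exact two-sided permutation p = 0.0185) and 1.11-fold for SAMD9 (exact permutation p = 0.0370), each with a Benjamini-Hochberg p of 0.0635 over 8 tests. Without C2, E2 and F1 the response of SAMD9L at 20 ng/ml was 0.60 higher in D-F, in a fit with 1 sample in E.

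SAMD9 was the more abundant of the pair in every sample. The ratio of SAMD9 to SAMD9L TPM was 2.64 and 2.66 in A1 and A2, and 2.29 and 2.14 in D1 and D2. At 20 ng/ml it was 2.84 in B1, 2.94 in B2, 1.97 in E1 and 3.20 in E2. At 200 ng/ml it was 2.54 in C1, 5.28 in C2, 3.31 in F1 and 2.12 in F2. The 3 highest ratios were those of C2, F1 and E2. The log2 ratio of SAMD9L to SAMD9 changed by -0.36 at 200 ng/ml, by -0.15 at 20 ng/ml and by -0.21 between doses, with exact two-sided permutation p of 0.500, 0.500 and 0.611. Line set D-F lay 0.31 above A-C (exact permutation p = 0.176), and each of the 4 had a Benjamini-Hochberg p of 0.611. Without C2, E2 and F1 the dose differences were 0.06, 0.02 and 0.04, and D-F lay 0.36 above A-C. These libraries were left out for their low SAMD9L counts, so the values without them do not test a line set difference. With counts in place of TPM and all 12 samples the line set difference was -0.024.

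The transcript values show where the counts of C2, E2 and F1 were low. The deposited transcript table holds 12 transcripts of the pair, 3 of SAMD9 and 9 of SAMD9L, all found in GENCODE release 29. SAMD9L-201, SAMD9L-202 and SAMD9L-204 carry the full coding region and are 7134, 5831 and 5757 bases long. The other 6 are between 381 and 1221 bases long. SAMD9L-203, SAMD9L-205, SAMD9L-206 and SAMD9L-207 stop shortly after the coding region begins. SAMD9L-208 is noncoding, and SAMD9L-209 lies within the long last exon.

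**Figure D3:**
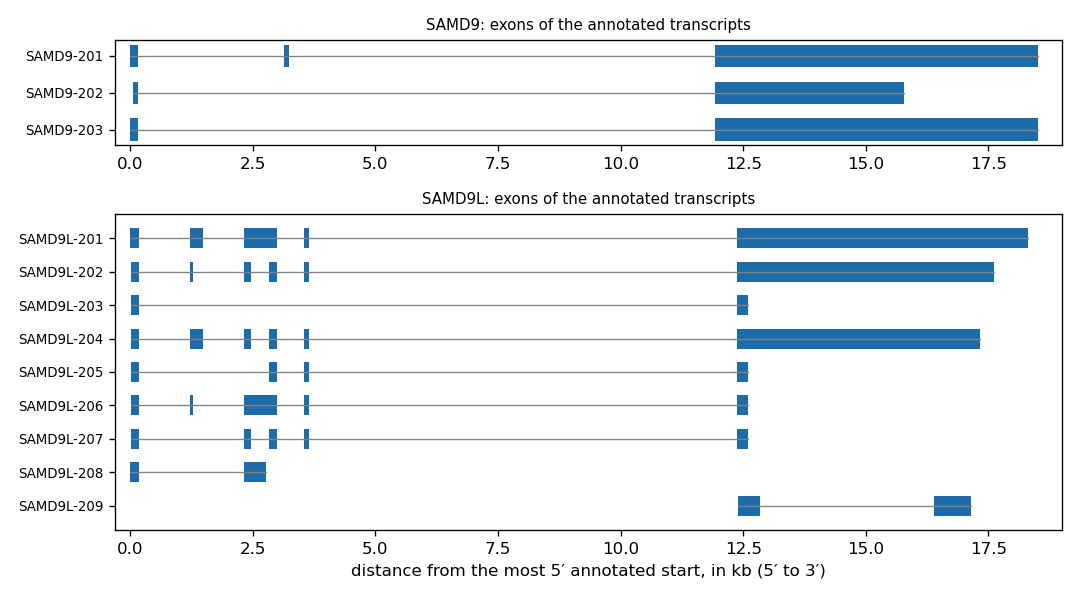
Exons (bars) of the annotated SAMD9 and SAMD9L transcripts along the gene, with the horizontal axis giving the distance in kb from the most 5′ annotated start and thin lines marking introns. SAMD9L-201, SAMD9L-202 and SAMD9L-204 contain the long last exon, and SAMD9L-203, SAMD9L-205, SAMD9L-206 and SAMD9L-207 end at its beginning.

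SAMD9L-204 took most counts of the gene in 9 samples. It held 2750 to 4383 counts in the 5 treated samples other than C2, E2 and F1, and 457 to 572 in the controls. In C2, E2 and F1 it held 197, 103 and 143 counts, below every control. SAMD9L-206, 1198 bases long, held 163 to 448 counts in those 3 libraries, 21 to 54 in the other treated samples and 0 to 18 in the controls. SAMD9L-209 held 12 to 20 counts in the 3 libraries and was listed at 0 in the other 9. SAMD9L-201, the longest form, did not follow this split, with 529 to 742 counts in the 3 libraries and 195 to 1157 in the other treated samples.

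The long and short forms together show how level and count diverged. The 3 long forms made up 19.7% to 32.1% of the SAMD9L TPM in C2, E2 and F1, 83.3% to 88.3% in the other 5 treated samples and 62.7% to 80.2% in the controls. Their counts were 825 to 962 in the 3 libraries, 3000 to 5018 in the other treated samples and 551 to 701 in the controls. The short forms rose in the 3 libraries to 265 to 580 counts, against 62 to 122 in the other treated samples, which did not make up for the drop. Since a short form needs few counts to reach a given TPM, C2, E2 and F1 held 14.8 to 17.1 SAMD9L counts per TPM, where the other samples held 33.8 to 49.7. The ratio of counts to TPM differed between replicates, after scaling to each sample's median gene, by 1.92 times for C, 2.38 times for E and 2.30 times for F. Among genes with at least 50 counts in both replicates, 0.773% in E and 0.934% in F differed by 2 times or more. Shifts of that size were thus uncommon but not restricted to SAMD9L. In C the share was 1.16%, but the SAMD9L shift of 1.92 times lay below this limit. The cause was not tested.

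**Figure D4:**
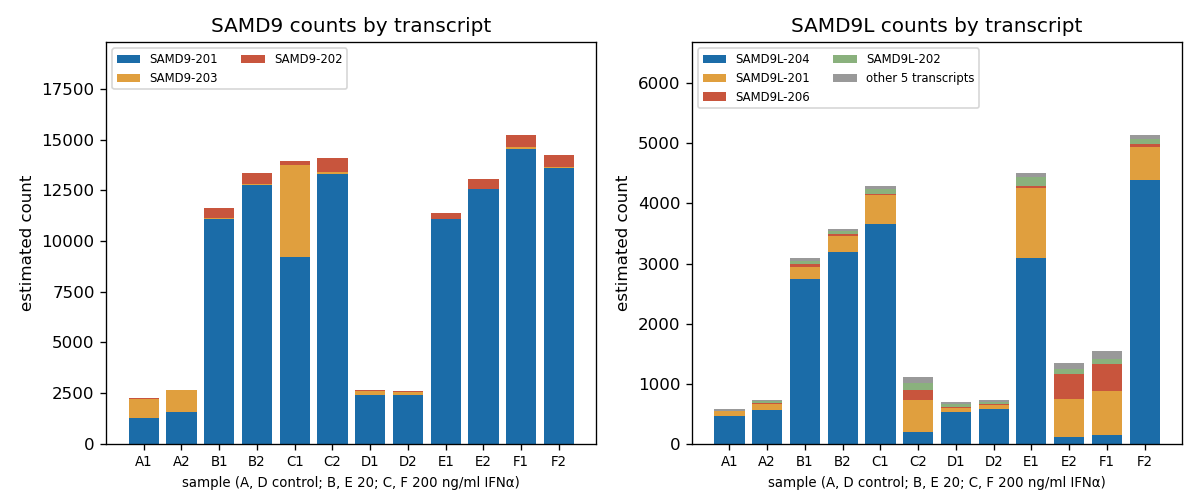
Estimated counts per sample on the vertical axis, stacked by annotated transcript, for SAMD9 (left) and SAMD9L (right), over samples A1 to F2 on the horizontal axis. The SAMD9L-204 part falls to 197, 103 and 143 counts in C2, E2 and F1, and the SAMD9-203 part is high in A1, A2 and C1.

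SAMD9 showed another split, in which the gene's total did not move. SAMD9-201, with 3 exons, and SAMD9-203, which lacks the middle one, share the whole coding region. SAMD9-203 held 922 counts in A1, 1121 in A2 and 4539 in C1, or 41.3%, 42.0% and 32.6% of the gene, and at most 212 counts in each other sample. The division thus differed between C1 and C2 although their SAMD9 totals were 13937 and 14105. SAMD9-202, a form with a shorter last exon, held 3 to 68 counts in the controls and 185 to 698 in the treated samples.

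All 12 transcripts passed the count filter, and 2 were called higher at 200 ng/ml, where 0.343% of the 75876 transcripts tested were called. SAMD9-201 had a log2 fold change of 3.10 (SE 0.14, edgeR adjusted p = 0.000154) and SAMD9L-201 one of 3.10 (SE 0.26, edgeR adjusted p = 0.00270). SAMD9L-204, the form with most SAMD9L counts in 9 samples, had 2.24 (SE 1.31, edgeR adjusted p = 0.668). All 12 estimates at 200 ng/ml, averaged over line sets, were positive, and the other 10 were not called. For SAMD9-203 the estimate was 0.34 (SE 0.87), with 4539 counts in C1. C2, F1 and F2 held 82, 89 and 78, below the controls at 136 to 1121. Its D-F estimate was -0.78, and its estimate at 20 ng/ml was -5.54. SAMD9L-209 had 6.18 (SE 2.85), from 12 counts in C2 and 20 in F1, with 0 in C1 and F2. A count of 5 called transcripts was given by DESeq2. Transcript counts rest on the assembler's division of shared exons, and this division differed between the replicates described here.

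In the order of fold changes among the 316 genes called higher at 200 ng/ml, the genes beside SAMD9 were of several kinds. Over all 19944 genes tested, called or not, SAMD9 was number 136 and SAMD9L number 212 by fold. Just above SAMD9 among the called genes were TNFSF10, the death ligand TRAIL, with a log2 fold change of 2.91 (SE 0.26), and IFI35 with 2.90 (SE 0.14). Just below it were ZNF709, a zinc finger gene, with 2.85 (SE 0.74), and DDX58, the RNA sensor RIG-I, with 2.83 (SE 0.06). SAMD9L ranked 117 of the 316 genes. It followed DDX60, a helicase gene, with 2.51 (SE 0.07) and an unnamed locus with 2.505 (SE 0.65), and preceded AL021937.3 with 2.48 (SE 0.41) and IFITM3, which blocks virus entry, with 2.46 (SE 0.18). All these places come from the fit on 12 samples. Without C2, E2 and F1 the log2 fold change was 3.10 for SAMD9L and 2.79 for SAMD9, so the order of the pair depends on these libraries.

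Among the 5 genes whose log2(TPM + 1) followed SAMD9 most closely over the 12 samples were XAF1, a proapoptotic gene, with Pearson r of 0.995, RSAD2, which encodes viperin, with 0.992, SP100, a nuclear body gene, with 0.992 and IFIT1 with 0.990. XAF1 went from a mean of 7.13 TPM in controls to 166 and 211 TPM with dose, and SP100 from 45.3 to 135 and 163 TPM. For SAMD9L the closest were STAT2 with 0.974, IFI27 with 0.973, PARP14 with 0.971, IFI35 with 0.971 and ZBP1 with 0.970. SAMD9 and SAMD9L had an r of 0.959 with each other, which made SAMD9L number 41 in the order for SAMD9 and SAMD9 number 14 in that for SAMD9L. These coefficients describe 12 libraries that all share the dose steps, and many interferon-stimulated genes have like values.

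In the signalling chain upstream of such genes, STAT2, IRF7, IRF9 and the inhibitor USP18 were among those that rose. Of its 12 genes, 5 were called higher at 200 ng/ml and 0 lower, with a median log2 fold change of 0.36 against -0.01 over all genes, of which 2.14% were called in either direction. USP18, which shuts down receptor signalling, had a log2 fold change of 4.16 (SE 0.11), IRF7 2.81 (SE 0.16) and IRF9 2.69 (SE 0.13). STAT2 had 1.80 (SE 0.08). The receptor chains IFNAR1 and IFNAR2 and the kinases JAK1 and TYK2 were not called, nor were the transcription factor IRF1 and the inhibitors SOCS1 and SOCS3. The low dose had 5 of 12 called higher, with a median of 0.31.

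Most of the listed antiviral genes that act on RNA or on translation, as the pair does, rose at both doses. Like the other lists, this one was chosen with earlier results of these data known, so its counts are descriptive and no test. At 200 ng/ml 15 of the 20 were called higher and 0 lower, where 1.58% of all genes were called higher, with a median log2 fold change of 2.21 beside -0.01 over all genes. The low dose had 12 called higher, where 0.963% of all genes were, with a median of 1.83 beside -0.01. OAS2, which senses double-stranded RNA, had 5.46 (SE 0.11) at 200 ng/ml. IFIT1, which binds foreign RNA caps, had 4.87 (SE 0.10), OAS1 had 4.01 (SE 0.07) and OASL had 3.80 (SE 0.10).

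Of 10 genes of the translation stress response, which marks cells whose protein synthesis is impaired, edgeR called 0 at either dose. DESeq2 called 0 at 200 ng/ml, where edgeR called 2.14% of all genes in either direction. Thus 0 of 10 is near the background and says nothing particular about these genes. Protein synthesis was not measured in these data. An unadjusted edgeR p no higher than 0.05 was found for 4 of the 10 at 200 ng/ml, as for 4759 of the 19944 genes, and for 2 with the low dose, as for 3357 genes. Their median log2 fold change was -0.05 with the high dose and -0.01 with the low dose, beside -0.01 over all genes in each comparison. The list holds the stress kinase genes EIF2AK1, EIF2AK3 and EIF2AK4 and the ribosome stress kinase gene MAP3K20. A further kinase gene of this class, EIF2AK2, stands in the antiviral list instead and was called higher, with a log2 fold change of 1.70 (SE 0.09, edgeR adjusted p = 1.41e-06) at 200 ng/ml, and it was picked out after its values had been seen.

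Among other genes named for the SAM domain, 1 passed the test. Of 14 listed, 11 passed the count filter and 1 was called, where 2.14% of all genes were called in either direction. It was SAMHD1, a nucleotide-cleaving antiviral enzyme, with a log2 fold change of 2.71 (SE 0.08, edgeR adjusted p = 1.95e-08) at 200 ng/ml. The list's median was 0.08 with the high dose and 0.15 with the low dose, with SAMHD1 alone called at the low dose too. SAMD3 had a log2 fold change of 2.32 (SE 1.09) and was not called, from a mean of 0.330 TPM in controls and 1.42 TPM at 200 ng/ml, and it was picked out after its values had been seen.

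In the surrounding stretch of chromosome 7, few genes could be tested. Of 10 genes whose span lies within 500 kb, 3 passed the count filter, and edgeR called 0 of them at either dose, as did DESeq2 at 200 ng/ml. With 2.14% of all genes called, 0 of 3 is near the background and says nothing particular about the neighbours. An unadjusted edgeR p no higher than 0.05 was found for 1 of the 3 with the high dose and for 2 with the low dose, beside 4759 and 3357 of the 19944 genes. VPS50, an endosomal transport gene, had a log2 fold change of 0.20 (SE 0.06, edgeR adjusted p = 0.0771), an unnamed locus had 0.17 (SE 0.08) and CDK6, a cell cycle kinase gene, had 0.08 (SE 0.05). The median of the 3 was 0.17 with the high dose and 0.12 with the low dose. HEPACAM2, the nearest gene beyond SAMD9L, reached at most 0.214 TPM in any sample.

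**Figure D5:**
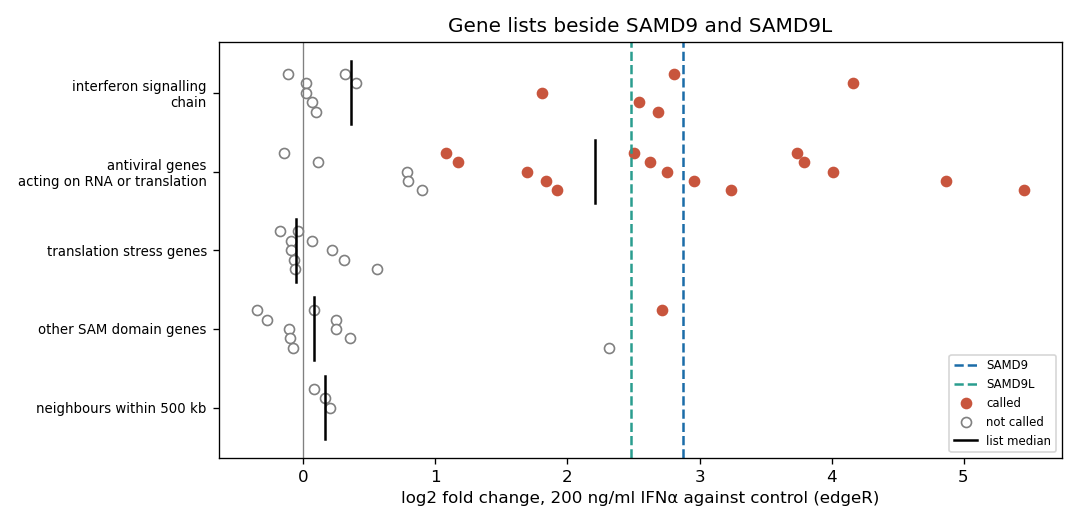
Log2 fold change at 200 ng/ml IFNα against control on the horizontal axis for every tested gene of 5 lists. Called genes are filled, black bars are list medians and dashed lines mark SAMD9 and SAMD9L with all 12 samples. The antiviral list has 15 of 20 genes called and a median of 2.21. The translation stress and neighbour lists have 0 called, near the 2.14% called over all genes.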

How the data were processed

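RNA of 12 samples was sequenced on the HiseqXTen platform from rRNA-depleted, strand-marked libraries. Per the labels' processing notes, the authors used Trimmomatic 0.36, HISAT2 2.1.0 and StringTie 1.3.3b with GRCh38.p10. The authors deposited an estimated count in whole numbers, not scaled for depth, and TPM and FPKM values scaled for length and depth, per gene and transcript. FPKM was not used.

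Counts were fitted with edgeR 4.0.16 in R 4.3.3 (TMM, filterByExpr, quasi-likelihood test, the 6 groups of line set and dose in a joint fit, contrasts averaged over line sets). SEs were obtained by dividing log2 fold changes by the root of F. Genes with a fold of at least 2 and a Benjamini-Hochberg adjusted p of at most 0.05 were called. The study used the same limits, but on p-values with no adjustment named. Exact permutation tests on log2 TPM ratios exchanged doses within line sets (36 arrangements) or line sets within doses (216 arrangements). Alternatives were DESeq2 1.42.0, RLE size factors, no filter, a replicate block, only the compared samples, an unadjusted p, each sample left out, and for the ratio 1 TPM added or counts in place of TPM. Fits without C2, E2 and F1 and with limma 3.58.1 on log2(TPM + 1) were added after the data had been seen. The fits were tested on simulated data. Transcript models came from GENCODE release 29 and promoters from RefSeq (GRCh38.p14), and codons were aligned with Biopython 1.88. Totals were 10517448 to 16056734 counts per sample, and each of the pair held at least 572 counts in every sample.

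The members and gene lists were chosen with earlier results of these data known. Named were both genes, all their transcripts, up to 4 called genes per list by size of change at 200 ng/ml (all genes of a list with at most 3 tested), the 5 genes most correlated with each member and the 2 next above and below it by fold. SHFL was matched by its ID as C19orf66. Same-numbered samples did not deviate together (correlation between -0.04 and 0.06 over 6 pairs of letters), so the main fit did not pair them. This does not show whether they were cultured or prepared together. The values of some genes that this rule names are not reported here.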

Additional observations from a re-analysis of the deposited data

Results flagged for a closer look

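Of 45 sets of 4 samples at a dose, covering TPM of both genes, of their 12 transcripts and their log2 ratio, 5 held a sample far from the other 3, where chance gives about 1 in 20. SAMD9-203 stood at 93.0 TPM in C1 at 200 ng/ml. SAMD9L-202 stood at 3.48 TPM in C2 at 200 ng/ml. SAMD9L-206 stood at 48.4 TPM and SAMD9L-209 at 1.69 TPM in E2 at 20 ng/ml. SAMD9L-207 stood at 0.70 TPM in A2 without IFNα. Neither gene's own TPM nor the ratio was far off in any set. Gene counts were not among these sets. At 200 ng/ml both C2 and F1 held low SAMD9L counts, and a rule for 1 sample in 4 can miss such a pair.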

How the results depend on the processing

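Of 404 alternative values, 362 kept the direction and the side of the threshold. SAMD9 kept both calls against control in every alternative, and the 5 list counts stayed within 1.5 times. With the replicate block the SAMD9L call at 20 ng/ml was lost (log2 fold change 2.40) and its control difference turned to -0.31, while no other call of the pair changed. The added fits without C2, E2 and F1 gave -0.00039 for the SAMD9L control difference and 0.60 for its line set difference at 20 ng/ml. They turned the log2 ratio changes to 0.060 at 200 ng/ml, 0.023 at 20 ng/ml and 0.037 between doses. The line set difference of the ratio was 0.36 there, in samples chosen by their SAMD9L counts. With limma on log2(TPM + 1) the SAMD9 control difference was 0.10 and the SAMD9L line set difference at 20 ng/ml 0.13. With counts in place of TPM the line set difference of the ratio was -0.024 and its change -0.63 at 200 ng/ml and -0.42 between doses. Of the pair's transcripts, 5 were called by DESeq2 and 7 on unadjusted p, against 2.

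With each sample left out in turn, the SAMD9L log2 fold change ranged from 1.91 to 2.79 at 200 ng/ml, from 1.83 to 2.73 at 20 ng/ml and from -0.50 to 0.65 between doses. Its control difference ranged from -0.018 to 0.021, and its line set differences from -0.98 to 1.26 at 200 ng/ml and from -1.26 to 0.60 at 20 ng/ml. The log2 ratio change ranged from -0.63 without C1 to -0.10 without C2 at 200 ng/ml, from -0.33 to 0.023 at 20 ng/ml and from -0.48 to 0.053 between doses, and its line set difference from 0.13 to 0.49, passing the threshold without C1 (exact permutation p = 0.0463). The called transcripts numbered 2 to 3. The causes were not tested. As each line set has 2 replicates at a dose, the spread of SAMD9L between replicates limits its precision.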
